A study of Mus musculus with 16 samples.

Results

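The nuclear genes of oxidative phosphorylation were followed through the cell classes of an embryonic mouse forebrain. They were chosen by symbol alone: each symbol of the deposited gene list that starts with Nduf, Uqcr, Atp5, Sdha to Sdhd, or Cox4 to Cox8 with the digit as written. The rule found 91 of 14498 genes, all annotated as protein coding. Of these, 77 encode subunits: 35 of complex I, 4 of complex II, 8 of complex III, 15 of complex IV (Ndufa4 counted there) and 15 of ATP synthase. The other 14 are assembly factors and relatives caught by the prefix (Ndufaf1 to Ndufaf7, Sdhaf1 to Sdhaf4, Cox7a2l, Atp5s and Atp5sl), and they were kept out of every sum over subunits. Single cells of wild-type CD1 mice, an outbred strain, were taken at embryonic day 15.5, and RNA was counted with a droplet kit as unique molecular identifiers (UMIs, 1 per captured molecule). The 16 labelled samples share strain, genotype and tissue (forebrain; the series' design text names cerebral cortex), name no treatment in their labels, and were deposited as 1 pooled matrix in which cells carry no sample name. Cells of 1 pool are not replicates, so the differences below have no replicate check and no p-value, and every interval is a 95% interval for counting error only.

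Oxidative phosphorylation makes most of the ATP of a respiring cell. Complex I takes electrons from NADH and complex II from succinate; complex III passes them to cytochrome c, complex IV passes them on to oxygen, and ATP synthase uses the proton gradient built on the way. Some core subunits of complexes I, III, IV and ATP synthase are encoded in mitochondrial DNA, while complex II is wholly nuclear. Neural progenitors are known to rely strongly on glycolysis, and neurons on respiration.

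Promoters of these genes are known to hold sites for NRF1, for ETS factors such as GABP, and for YY1. The windows of 4 members are shown because these genes recur in the results below: 150 bases up to the annotated start, from RefSeq on GRCm38.p6, minus strand, read 5′ to 3′, with the searched letters in capitals. They lie at chr13:74350241-74350390 (Sdha), chr9:50603850-50603999 (Sdhd), chr2:174464102-174464251 (Atp5e) and chr16:84834977-84835126 (Atp5j, for which the table holds 2 starts).
Sdha: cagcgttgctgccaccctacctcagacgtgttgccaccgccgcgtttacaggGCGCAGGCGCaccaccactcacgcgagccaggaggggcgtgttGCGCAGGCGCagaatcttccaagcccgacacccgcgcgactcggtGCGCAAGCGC
Sdhd: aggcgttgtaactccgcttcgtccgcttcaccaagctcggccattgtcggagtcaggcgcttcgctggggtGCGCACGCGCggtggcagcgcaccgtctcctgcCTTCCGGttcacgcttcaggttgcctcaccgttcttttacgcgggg
Atp5e: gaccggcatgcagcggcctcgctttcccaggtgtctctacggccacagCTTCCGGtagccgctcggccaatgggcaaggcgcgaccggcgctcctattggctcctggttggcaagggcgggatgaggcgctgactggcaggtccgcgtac
Atp5j: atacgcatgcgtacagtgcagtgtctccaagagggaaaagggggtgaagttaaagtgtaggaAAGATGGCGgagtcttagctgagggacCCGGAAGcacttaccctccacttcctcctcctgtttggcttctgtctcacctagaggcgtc
The capitals mark NRF1 letters 3 times in Sdha, an NRF1 and an ETS match in Sdhd, an ETS match in Atp5e, and a YY1 and an ETS match in Atp5j. A promoter entry (250 bases before to 50 after the start) was found for 78 of the 91 members. Exact matches on either strand to the NRF1 letters (GCGCA, any base, GCGC, which can match both strands at the same place) were in 20 of the 78, which is 25.6%, beside 10.8% of the 11438 measured genes with an entry. CCGGAAG (ETS) was also in 20, beside 18.4% of genes. AAGATGGCG (YY1) was in 8, which is 10.3%, beside 3.21% of genes. At least 1 of the 3 stood in 41 members, beside 28.9% of genes. A match is a run of letters in a window, not a shown binding site.

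The matrix held 5777 cells and 21609944 UMIs, with 1111 to 17398 UMIs per cell (median 3258); 4 cells rich in globin were set apart. Clustering without the 91 members gave 26 clusters, of which 20 were named from marker genes, always as "-like", and 6 clusters with 1024 cells stayed unnamed. In the comparisons below, "excitatory neurons" are the deep layer neuron-like and excitatory neuron-like classes together (1294 cells). In the order of the matrix, cells fell into 2 runs of 3651 and 2122 with 4 cells between. The first was ended at the last cell with Y-linked UMIs. The second was started at the first cell with UMIs of 11 genes that stand out of order at the end of the gene list. What the runs are is not labelled. The choroid plexus-like cluster of 25 cells was mixed. In 10 of its cells there were 347 to 2841 UMIs of Ttr, the transthyretin gene that defines this epithelium, and in the other 15, called cells with little Ttr below, there were 0 to 10. All markers were raised in 10 of the 12 classes; 8 of 9 were raised in excitatory neuron-like and 12 of 13 in striatal neuron-like cells. The leading genes of the meningeal fibroblast-like cluster (29 cells) include the endothelial Cd93 and Cd34.

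As a share of all UMIs, subunit UMIs were highest in choroid plexus-like cells, followed by radial glia-like, meningeal fibroblast-like and ganglionic progenitor cells, and lowest in deep layer and microglia-like cells. The 77 subunits took 395409 UMIs, 1.83% of all UMIs in the matrix. Radial glia-like cells, the cortical progenitors, stood at 2.03% (2.01 to 2.05, 576 cells) and progenitors of the ganglionic eminence, which give rise to interneurons, at 2.0% (1.98 to 2.02, 455 cells). Intermediate progenitor-like cells followed at 1.82% (1.80 to 1.85, 432 cells). Over both runs the excitatory branch stood lower, with 1.76% in migrating, 1.74% in excitatory and 1.66% in deep layer neuron-like cells. The intervals of migrating (1.747 to 1.777) and excitatory neuron-like cells (1.720 to 1.751) overlapped. In the first run their order was reversed, with 1.86% in migrating and 1.90% in excitatory neuron-like cells. Interneuron-like cells (1.83%, 686 cells) and striatal neuron-like cells (1.93%, 262 cells) stood above the excitatory classes over both runs, but not in every comparison within a run. In the first run, with 453 of the interneuron-like and 244 of the striatal neuron-like cells, interneuron-like cells had 1.87% and excitatory neuron-like cells 1.90%. In the second run, striatal neuron-like cells (18 cells) had 1.58% and migrating neuron-like cells 1.63%. Choroid plexus-like cells had 2.21% (2.14 to 2.30) and microglia-like cells 1.52% (1.43 to 1.61, 18 cells). In this order the intervals of neighbours overlapped for radial glia-like and meningeal fibroblast-like cells, for the latter and ganglionic progenitors, for interneuron-like and intermediate progenitor-like cells, and for Cajal-Retzius-like cells with both neighbours. Shares of single cells spread far more than those of classes. The middle 50% of radial glia-like cells ran from 1.71 to 2.48% and that of excitatory neurons, both classes, from 1.42 to 1.92%. A single cell holds few subunit UMIs, so this spread includes counting error, whose part was not tested.

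**Figure D1:**
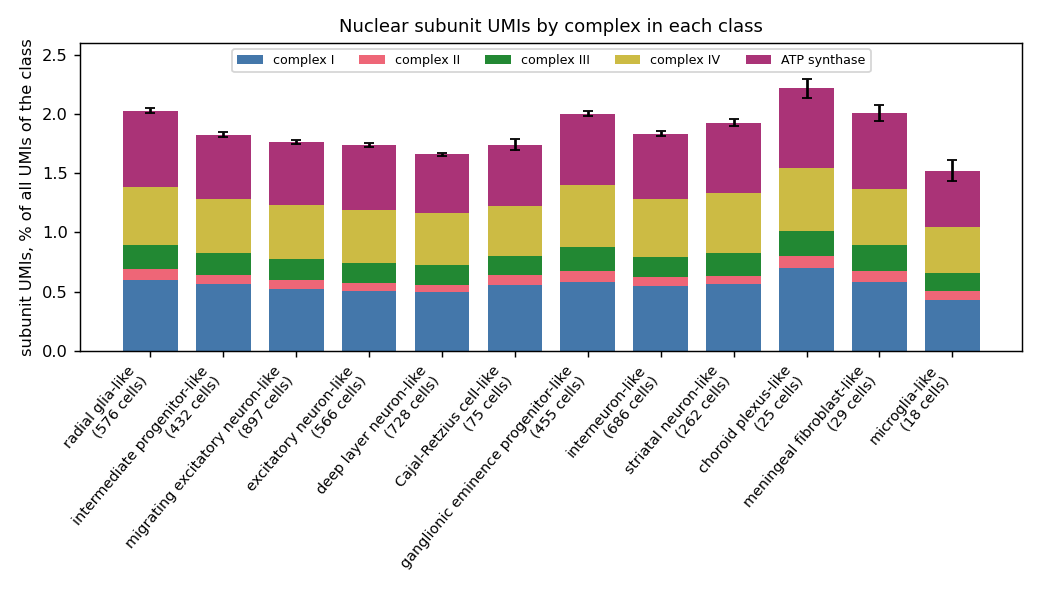
Share of each class's UMIs that belongs to nuclear subunits (bars, in percent, stacked by complex) with the 95% counting interval of the sum (black). Bars run from 1.52% in microglia-like to 2.21% in choroid plexus-like cells, and the complexes keep similar parts of each bar.

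The complexes kept near-constant proportions. Of all subunit UMIs, 29.7% came from complex I, 4.17% from complex II, 9.89% from complex III, 25.9% from complex IV and 30.4% from ATP synthase. Complex II varied most in relative terms among the larger classes, from 4.67% of subunit UMIs in radial glia-like to 3.60% in striatal neuron-like cells. UMI totals of different genes are not set against each other here, since capture and length differ between genes.

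As a share of all UMIs, every complex was lower in excitatory neurons than in radial glia-like cells, complex II most and complex IV least. Assembly factors were not lower. Shares do not give amounts per cell: the median depth was 4406 UMIs in excitatory neurons and 3051.5 in radial glia-like cells. The summed share went from 2.03 to 1.69%, a ratio of 0.836 (0.826 to 0.846). Complex II had a ratio of 0.705 (0.667 to 0.745) and ATP synthase 0.808 (0.792 to 0.825). Complex III stood at 0.821 (0.791 to 0.852), complex I at 0.833 (0.815 to 0.851) and complex IV at 0.907 (0.886 to 0.929), an interval above those of the other complexes. The 14 factors together had a ratio of 1.07 (1.0 to 1.14). The 2 classes together gave 86 members the required 50 UMIs, and 13 of these were at least 1.5-fold lower, beside 30.4% of the 10192 genes measured, and 2 were 1.5-fold higher, beside 23.5%. Both shares are smaller among the members than among all genes, and most members differed by less than 1.5-fold. The shares were not matched for UMI count: the subunits had a median of 4220 UMIs in the matrix, while a gene needed 50 over both classes. Ratios from few UMIs spread more, so the smaller shares are not read as a trait of the module. At a smaller limit (a level at least 20% lower or 25% higher, the same step on a log scale), 33 were lower (41.0% of genes) and 5 higher (31.5%). The median member stood at -0.24 on the log2 scale and the median gene at -0.14. Among the 72 subunits measured, 60 were below 1, 48 with an interval below 1 and 2 with an interval above 1, and 64 had the same direction in both runs.

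Complex I held the member with the lowest ratio. Ndufa12 (chromosome 10, 94198720 to 94221443, plus strand), an accessory subunit of the matrix arm, went from 78.3 to 37.5 CPM (UMIs scaled to 1000000 per class), 2.09-fold lower (1.69 to 2.58). Its levels were 70.7 CPM in ganglionic progenitors, 56.8 in intermediate progenitor-like, 55.0 in Cajal-Retzius-like and 44.3 in interneuron-like cells. They were 40.8 in migrating, 39.9 in excitatory, 35.4 in deep layer and 34.3 CPM in striatal neuron-like cells. Among classes of at least 50 cells, radial glia-like cells and ganglionic progenitors were thus highest, and intermediate progenitor-like cells stood near Cajal-Retzius-like cells. In the small clusters, choroid plexus-like cells had 68.6 CPM (9 UMIs), meningeal fibroblast-like cells 63.7 (10 UMIs) and microglia-like cells 14.2 (1 UMI). Ndufs7, a core subunit with an iron-sulphur cluster, went from 139 to 71.9 CPM (1.94-fold lower, 1.66 to 2.26). Ndufc2, an accessory subunit of the membrane arm and the complex I member with the most UMIs, went from 395 to 230 CPM (1.72-fold lower, 1.57 to 1.88). Ndufa2, Ndufb11 and Ndufab1, the mitochondrial acyl carrier protein, were 1.66-, 1.65- and 1.73-fold lower. In the other direction, Ndufb9 of the membrane arm went from 230 to 271 CPM, a ratio of 1.18 (1.06 to 1.31). Core subunits were on both sides of the complex's median log2 ratio of -0.21: Ndufv1 had a ratio of 0.938 (0.803 to 1.10) and Ndufs8 one of 0.740 (0.628 to 0.873).

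All 4 subunits of complex II were lower, each with an interval below 1. Sdhc, a membrane anchor, went from 295 to 190 CPM (1.56-fold lower, 1.41 to 1.72), and the other anchor, Sdhd, from 162 to 109 CPM (1.49-fold, 1.3 to 1.71). Sdha, the flavoprotein that oxidises succinate, went from 233 to 168 CPM (1.39-fold, 1.24 to 1.55), and Sdhb, the iron-sulphur subunit, from 255 to 201 CPM (1.27-fold, 1.14 to 1.41). Sdhaf4, which assists the assembly of the flavoprotein, moved the opposite way, from 66.6 to 122 CPM, a ratio of 1.83 (1.52 to 2.22), and Sdhaf2, which helps to attach its flavin, had 1.29 (1.03 to 1.63). Sdhaf3 was 1.52-fold lower (0.998 to 2.27) and Sdhaf1 had a ratio of 0.980 (0.753 to 1.29), so the 4 factors of this complex did not move as a set. The Sdhaf4 difference was uneven between the runs, with a log2 ratio of 1.33 in the first and 0.22 in the second.

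In complex III, Uqcr10, a small subunit, had the lowest ratio, from 226 to 137 CPM (1.66-fold lower, 1.47 to 1.86). Uqcrc2, a core protein, had the highest, 1.11 (0.994 to 1.247), while its partner Uqcrc1 stood at 0.817 (0.702 to 0.952). In complex IV, Cox8a, a small subunit of the inner membrane, went from 448 to 252 CPM (1.78-fold lower, 1.63 to 1.93). Cox8a stood at 389 CPM in ganglionic progenitors, 382 in intermediate progenitor-like, 356 in interneuron-like and 309 in Cajal-Retzius-like cells. Striatal neuron-like cells had 308, migrating 287, excitatory 271 and deep layer neuron-like cells 235 CPM. In the small clusters, choroid plexus-like cells had 542, meningeal fibroblast-like cells 446 and microglia-like cells 355 CPM. Several other complex IV members had ratios near 1. Cox4i1, the member with the most UMIs, had 0.956 (0.900 to 1.01), Cox5a 1.0 (0.927 to 1.08) and Cox7a2 0.993 (0.909 to 1.09). Cox6a1 was slightly higher, from 602 to 658 CPM, with a ratio of 1.09 (1.02 to 1.17) and the same direction in both runs.

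The members of ATP synthase were uneven, also within 1 part of the machine. Atp5e, the epsilon subunit of the rotor (chromosome 2, 174461072 to 174464105, minus strand), went from 690 to 389 CPM, 1.77-fold lower (1.66 to 1.90). It stood at 602 CPM in ganglionic progenitors, 582 in intermediate progenitor-like, 470 in migrating, 445 in striatal and 429 in excitatory neuron-like cells. Interneuron-like cells had 421, Cajal-Retzius-like cells 373 and deep layer neuron-like cells 355 CPM. In the small clusters, choroid plexus-like cells had 725, meningeal fibroblast-like cells 700 and microglia-like cells 525 CPM. Atp5j, subunit F6 of the peripheral stalk, was 1.51-fold lower (1.38 to 1.64). Other stalk subunits differed among themselves. Atp5o had a ratio of 1.07 (0.992 to 1.16) and Atp5f1 0.999 (0.934 to 1.07), while Atp5h was lower, from 385 to 284 CPM. The catalytic pair was in between, with Atp5b at 0.827 (0.782 to 0.875) and Atp5a1 at 0.920 (0.867 to 0.977). The 3 genes for the rotor ring make the same mature protein, and their proportions hardly differed: of their joint UMIs, Atp5g3 had 83.1% in radial glia-like cells, 83.3% in excitatory neurons and 84.2% in interneuron-like cells. Atp5l had 78 UMIs in the whole matrix and 2 named pseudogene copies in the annotation, so its level is uncertain; Atp5c1, Atp5k, Ndufab1 and Uqcrh also have named copies.

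Among complex I factors, Ndufaf3, which acts early in assembly, went from 25.9 to 44.7 CPM, a ratio of 1.72 (1.27 to 2.38), while its partner Ndufaf4 had 0.689 (0.560 to 0.850). Ndufaf5, another early factor, had 1.49 (1.17 to 1.92) and Ndufaf1 0.655 (0.480 to 0.903).

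**Figure D2:**
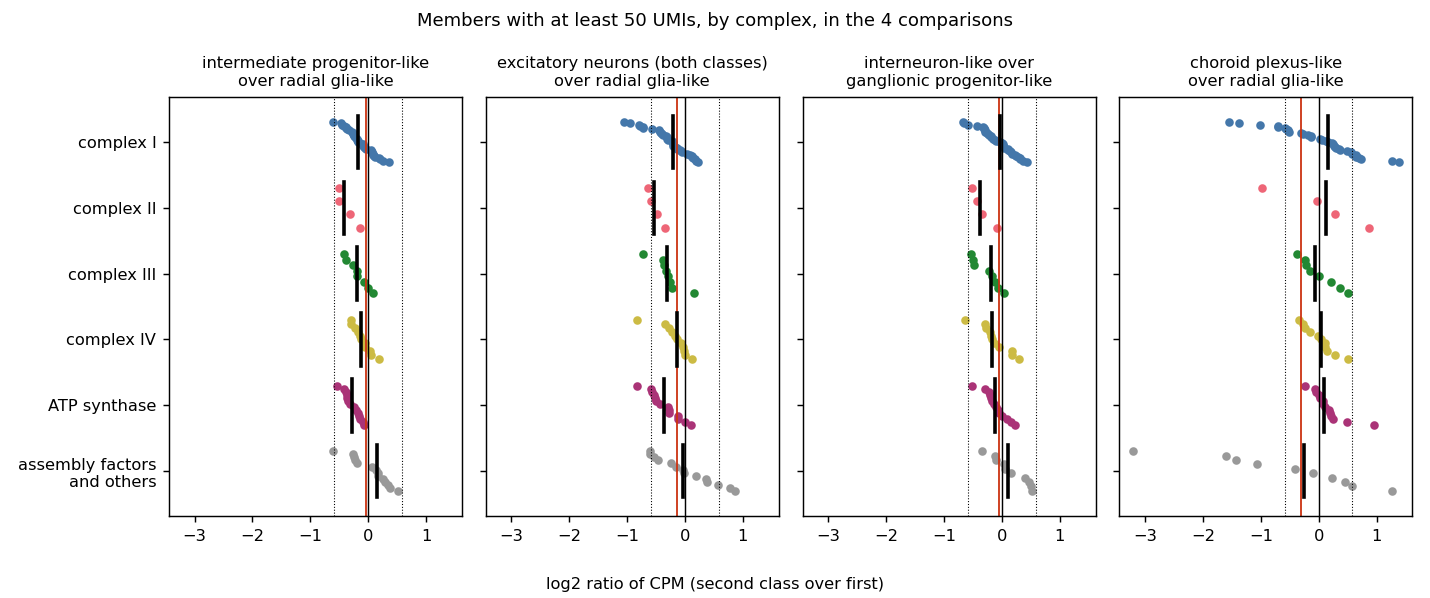
Log2 ratio of CPM for each member with at least 50 UMIs (points) in 4 comparisons, by complex, with the median of each group (black bar), the median of all genes (red line) and 1.5-fold (dotted). In the second panel the complex II median lies at -0.53 and the complex IV median at -0.14.

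Depth and run moved with these levels. Radial glia-like cells had a median of 3051.5 UMIs and excitatory neurons 4406. In radial glia-like cells the subunit share went from 2.44% in cells under 2000 UMIs through 2.16 and 2.0 to 1.87% in cells of 4500 and more, and in excitatory neurons from 1.88 through 1.71 and 1.67 to 1.69%. Radial glia-like cells were higher in each of the 4 depth bins. The second run was lower than the first in 12 of 12 classes, for example with 1.86 against 2.18% in radial glia-like cells. Excitatory neurons, both classes, had 1.56 against 1.83%. Within each run the summed log2 ratio stayed at -0.25, beside -0.26 over both. Of the 13 members called lower, 9 passed 1.5-fold in the first run alone and 13 in the second, all 13 with the same direction in both. With the top 5% of doublet scores removed, 24 members passed 1.5-fold in place of 15, and in cells under 3000 UMIs 26 did. Within radial glia-like cells, the second run over the first was lowest for complex III at 0.756 (0.710 to 0.806) and highest for complex I at 0.886 (0.854 to 0.919). The share of ribosomal protein genes (Rpl and Rps) went from 8.89% in radial glia-like cells to 5.97% in excitatory neurons. The part of depth, run and ribosomal share in the levels was not tested. Of the radial glia-like clusters, that with the higher share of S phase genes stood at 1.87% and the other at 2.10%. Both lay above every excitatory neuron-like class over both runs. The first did not lie above every single cluster of these classes: a deep layer neuron-like cluster (97 cells, median 1560 UMIs) had 1.88%.

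**Figure D3:**
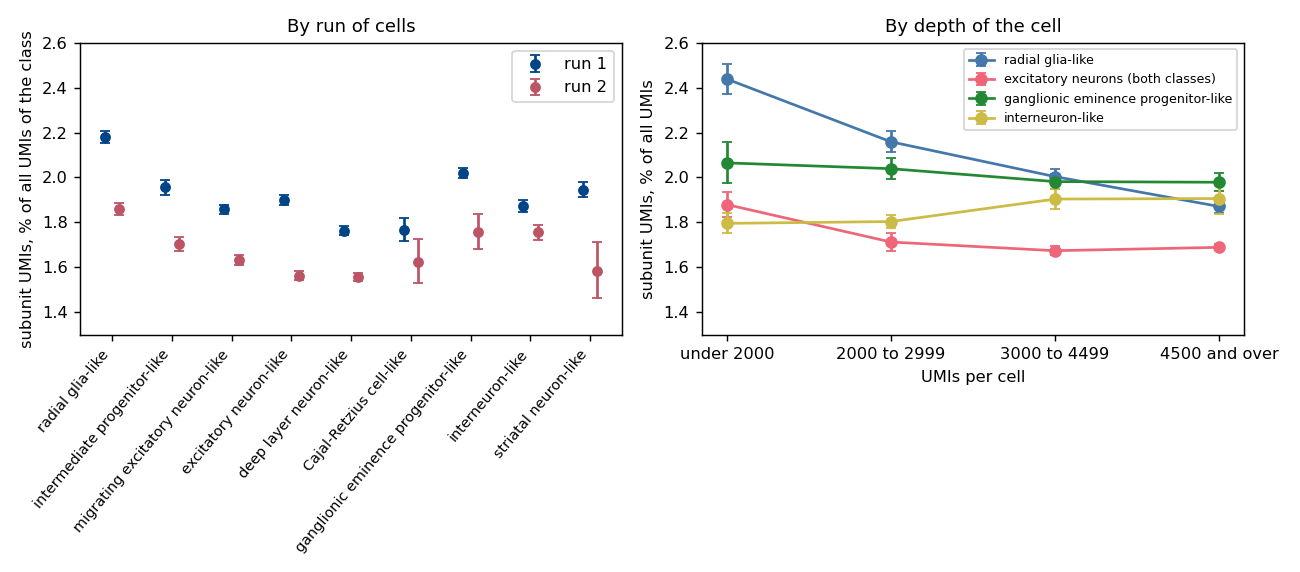
Subunit share of UMIs (percent, 95% counting interval) by run for classes of at least 50 cells (left) and by UMIs per cell for 4 classes (right); the vertical axes start at 1.3%. The second run lies below the first in each class, and radial glia-like cells lose most with depth, from 2.44 to 1.87%.

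Intermediate progenitor-like cells, the step between radial glia and neurons, showed a smaller shift with the same first place for complex II. They were compared with the same radial glia-like cells as above, so the comparisons share that class. The summed ratio was 0.900 (0.885 to 0.914), with 0.786 (0.728 to 0.849) for complex II, 0.841 (0.817 to 0.866) for ATP synthase, 0.908 (0.864 to 0.955) for complex III and 0.943 for both complex I and complex IV. None of 86 members was 1.5-fold higher (14.3% of 8640 genes) and 2 were lower (20.5% of genes): Ndufaf4, from 70.7 to 46.5 CPM (1.52-fold, 1.12 to 2.08), and Ndufab1, whose interval included 1. Both fell short of 1.5-fold in the second run alone. At the smaller limit, 19 were lower (31.7% of genes) and 4 higher (25.8%). All 14 ATP synthase genes measured were below 1, 11 with an interval below 1, Atp5g1 lowest at 0.690 (0.550 to 0.862). In complex II Sdhd went from 162 to 114 CPM (1.42-fold lower, 1.17 to 1.73) and Sdhb from 255 to 181 CPM (1.41-fold lower, 1.21 to 1.65). In complex III, Uqcrq was lowest at 0.748 (0.658 to 0.850). In complex IV, Cox7c was highest at 1.13 (1.01 to 1.27). Ndufa6, a matrix arm subunit, was the highest in complex I, from 278 to 356 CPM, a ratio of 1.28 (1.13 to 1.45). Of the factors, Sdhaf2 was highest, at 1.44 (1.07 to 1.93). The summed log2 ratio was -0.30 in cells under 3000 UMIs and -0.089 in deeper ones, with 15 and 4 members past 1.5-fold, so both changed with depth. Genes of S phase took 0.50% of UMIs in the radial class but 0.11% in the intermediate one. Those of the later G2/M phase took 0.27 and 0.039%. Unnamed clusters of 282 and 238 cells scored best as radial glia and as intermediate progenitor. Their G2/M genes took 1.35 and 0.50% of UMIs. With every cluster named, the summed log2 ratio was -0.091 in place of -0.15, with 0 members past 1.5-fold. The part of the cell cycle was not tested.

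The inhibitory branch, here interneuron-like cells over ganglionic progenitors, shared no cells with the excitatory comparison and had a smaller summed difference. Whether these progenitors are the source of these interneuron-like cells was not tested. The summed ratio from ganglionic progenitors to interneuron-like cells was 0.917 (0.902 to 0.931). Complex II was again lowest, 0.790 (0.731 to 0.853), followed by complex III at 0.845 (0.803 to 0.890), ATP synthase at 0.916 (0.890 to 0.943), complex IV at 0.939 (0.910 to 0.968) and complex I at 0.941 (0.915 to 0.969). Of 82 members, 4 were 1.5-fold lower (23.4% of 8431 genes) and 0 higher (19.6%). They were Ndufa12 (70.7 to 44.3 CPM, 1.60-fold, 1.18 to 2.17), Ndufa2 (351 to 223 CPM, 1.58-fold, 1.38 to 1.80), Cox7c (444 to 285 CPM, 1.56-fold, 1.38 to 1.75) and Ndufc2 (332 to 220 CPM, 1.51-fold, 1.31 to 1.72). At the smaller limit, 14 were lower (34.6% of genes) and 6 higher (30.3%). Those with intervals above 1 include Cox5a, from 498 to 610 CPM (1.23, 1.12 to 1.35), and Ndufa8, from 137 to 186 CPM (1.36, 1.14 to 1.62). Runs were uneven here: 425 of the 455 progenitors but 453 of the 686 interneuron-like cells lay in the first run. The summed log2 ratio was -0.13 over both runs, -0.11 in the first and -0.0021 in the second, where 29 progenitors were left and 16 members passed 1.5-fold. Of the 4 genes, 3 passed 1.5-fold in each run and 1 in cells of at least 3000 UMIs, with all 4 in the same direction in these sets. The ribosomal share went from 7.02 to 5.47%; its part was not tested.

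Of 82 members measured in both branches, 31 were at least 20% lower in the excitatory and 14 in the inhibitory one, and 13 were on both lists, which is 41.9% of the first and 92.9% of the second. The 13 are 15.9% of the 82 members, while 27.8% of all genes measured in both were on both lists. For all genes, the shared ones were 68.2% of the first list and 80.8% of the second. The shared members are Sdha, Sdhc and Sdhd of complex II, Uqcr10, Uqcr11 and Uqcrb of complex III, Ndufa12, Ndufa2, Ndufc2, Ndufs6 and Ndufs7 of complex I, Atp5e of ATP synthase, and the factor Ndufaf4. None belongs to complex IV: Cox8a was 1.78-fold lower in the excitatory branch but had 356 CPM in interneuron-like cells against 389 in ganglionic progenitors. Higher in both were 3 factors of 82 members, Ndufaf5, Ndufaf7 and Sdhaf2, which is 3.66%, beside 20.9% of genes. The difference between the branches was not tested.

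**Figure D4:**
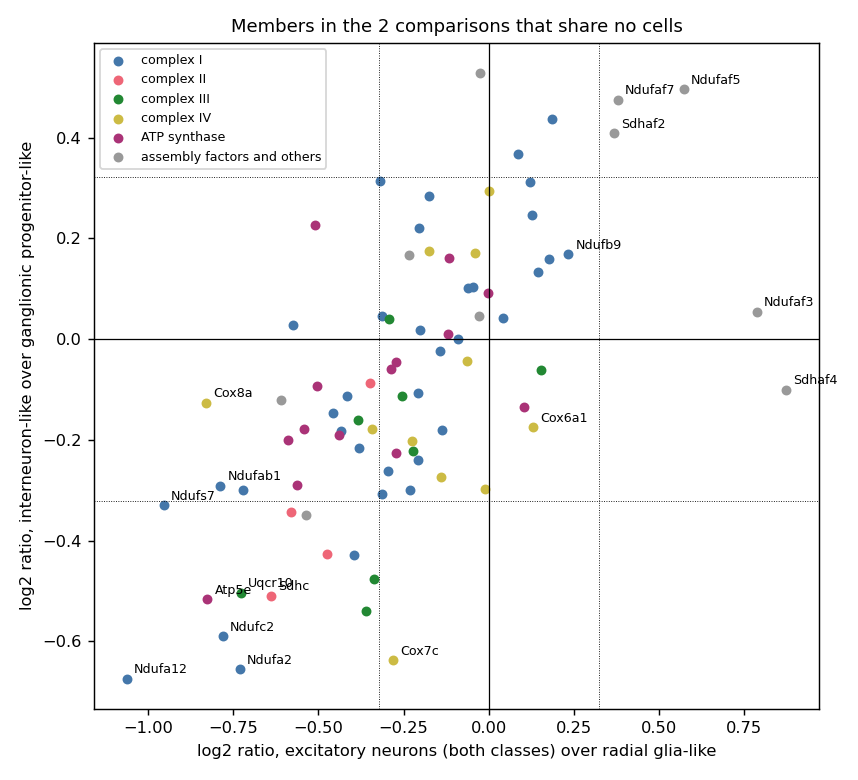
Each point is 1 of 82 members, with its log2 CPM ratio in the excitatory branch (horizontal) and in the inhibitory branch (vertical); dotted lines mark 25% higher and 20% lower. The lower left holds the 13 members lower in both, with Ndufa12 at -1.06 and -0.67, and the upper right 3 assembly factors.

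Across the 9 classes of at least 50 cells, 81 members had 500 UMIs or more. Radial glia-like cells were the highest class for 23 of them, striatal neuron-like cells for 17 and ganglionic progenitors for 14. Deep layer neuron-like cells were the lowest for 21 and Cajal-Retzius-like cells for 18. The Cajal-Retzius-like class, also the highest for 9, is the smallest of the 9 classes, with 75 cells and 327071 UMIs. Levels from fewer UMIs spread more, so a small class is more often at either end. These levels pool the runs, and ganglionic progenitors and striatal neuron-like cells lay mostly in the first. Some members departed from the common pattern. They were picked as varying most across these classes, so their extremes hold counting error too. Ndufb4, an accessory subunit of complex I, was highest in Cajal-Retzius-like cells at 52.0 CPM, where a count of 3 would be 9.17 CPM. It had 27.5 CPM in radial glia-like and 15.7 CPM in striatal neuron-like cells. Ndufab1 was lowest in striatal neuron-like cells, at 11.5 CPM (8 UMIs) against 33.6 (66 UMIs) in radial glia-like cells. Cox5a stood at 621 CPM in striatal, 610 in interneuron-like and 557 in migrating cells, above the 446 CPM of radial glia-like and 391 CPM of Cajal-Retzius-like cells. Atp5g1 was highest in striatal neuron-like cells, at 156 CPM against 127 in radial glia-like and 85.6 CPM in Cajal-Retzius-like cells.

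**Figure D5:**
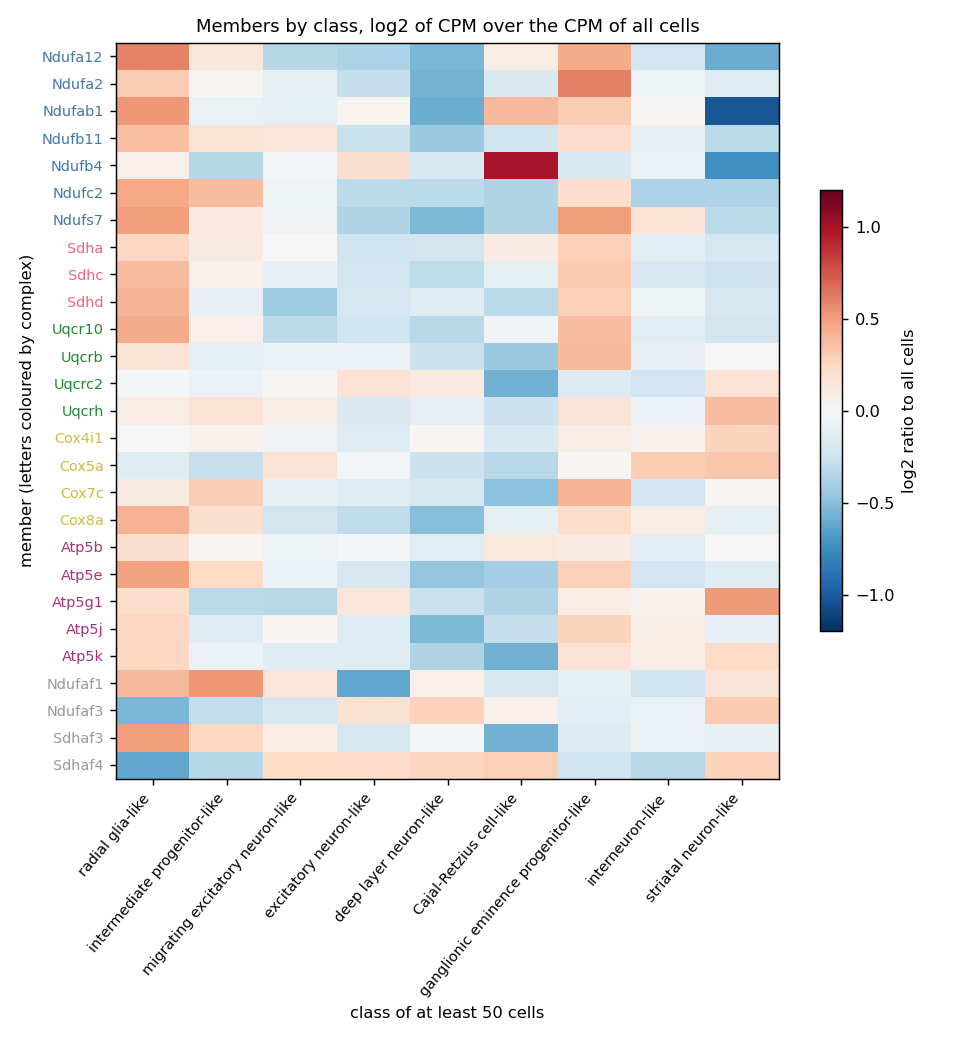
Log2 ratio of each class's CPM to that of all cells (colour) for 27 members (rows; letters coloured by complex) in classes of at least 50 cells (columns). Radial glia-like and ganglionic progenitor columns are mostly red; Ndufb4 in Cajal-Retzius-like cells is the highest cell at 0.99 and Ndufab1 in striatal neuron-like cells the lowest at -1.03.

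The choroid plexus-like cluster, compared with the same radial glia-like cells, had the highest complex I share of the named classes, 0.697% of UMIs against 0.598% in radial glia-like cells. The summed ratio was 1.09 (1.05 to 1.14), with 1.17 (1.09 to 1.248) for complex I and 1.09 (1.01 to 1.18) for complex IV; the intervals of complex II, complex III and ATP synthase included 1. Its 10 cells with Ttr had 2.16% (2.06 to 2.26) and the 15 with little Ttr 2.30% (2.17 to 2.43). Runs were uneven, with 19 of the 25 cells, and 9 of the 10 with Ttr, in the first run, where radial glia-like cells had 2.18%. Within the first run the cluster had 2.30% and a summed log2 ratio of 0.078, beside 0.13 over both runs, and in the second run its 6 cells had 1.87% against 1.86%. ATP synthase differed between these parts: its ratio to radial glia-like cells was 0.968 (0.883 to 1.06) with Ttr and 1.18 (1.07 to 1.31) with little. Of 82 members, 10 were 1.5-fold higher (15.9% of 7565 genes) and 10 lower (37.6%), and at the smaller limit 21 were higher (23.4%) and 17 lower (49.3%). With 131117 UMIs in the cluster many of these are small counts: 10 members had an interval above 1 and 5 below. Ndufa1, an accessory subunit encoded on the X chromosome, went from 134 to 351 CPM, a ratio of 2.62 (1.87 to 3.60), with 457 CPM in the cells with Ttr and 179 in the others. Sdhd behaved alike, from 162 to 297 CPM (1.83, 1.28 to 2.56), with 395 CPM (32 UMIs) with Ttr and 140 CPM (7 UMIs) with little. Ndufb10 of the membrane arm was high in both parts, 420 and 379 CPM against 169 in radial glia-like cells, a ratio of 2.39 (1.76 to 3.21) for the cluster. Sdhb stood at 130 CPM against 255 (1.97-fold lower, 1.22 to 3.41), so the subunits of complex II diverged. Ndufs7 had a ratio of 0.383 (0.153 to 0.800). Ndufaf4 had 1 UMI in the cluster, a ratio of 0.108 (0.0027 to 0.611). Ndufb4 had 0 UMIs there, beside 27.5 CPM in radial glia-like cells. A count of 3 in the cluster would be 22.9 CPM, so the 0 does not show a lower level.

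Most tissue-specific isoforms were nearly silent. Cox4i2, the isoform known from lung, had 7 UMIs, the heart and muscle isoform Cox7a1 43 and Cox7b2, known from testis, 9, and these 3 are the members under 50 UMIs. Cox6b2, the testis isoform of a complex IV subunit that faces the intermembrane space (chromosome 7, 4751792 to 4753094, minus strand), was the exception. It had 88 UMIs, 19 of them in 5 of the 25 choroid plexus-like cells (20%). The remaining 69 were in 65 of the 5748 other cells (1.13%). Cells of 1 pool are not replicates, so these shares of cells carry no interval. The median depths were 4145 and 3257 UMIs. All 5 cells were among the 10 with Ttr. They carried 2 to 8 UMIs of Cox6b2 with at least 6 of Foxj1, the gene of the motile cilia programme. They were also the deepest cells of the cluster, each with at least 7995 UMIs. Cells of 6608 and 7630 UMIs, with 1246 and 1165 UMIs of Ttr, had 6 and 9 of Foxj1 but 0 of Cox6b2. The part of depth was not tested. The level was 145 CPM in the cluster and 235 CPM in its cells with Ttr, against 12.7 in meningeal fibroblast-like, 12.2 in Cajal-Retzius-like, 7.72 in ganglionic progenitors, 5.59 in radial glia-like and 0.59 CPM in interneuron-like cells. Of the joint UMIs of Cox6b1 and Cox6b2, the second gene had 22.6% (14.2 to 33.0) in the cluster. It had 1.11% (0.556 to 1.98) in radial glia-like cells and 0.142% (0.0387 to 0.363) in excitatory neurons. The interval for the cluster takes its 19 UMIs as independent, though 5 cells held them and 1 cell held 8. Cox6b1 itself was level, 496 CPM in the cluster and 498 in radial glia-like cells. All 5 cells lay in the first run. The 6 cells of the second run had 0 UMIs, which in so few cells does not show a lower level.

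For excitatory neurons over radial glia-like cells, members with ETS letters in the promoter had a median log2 ratio of -0.41 (19 members), against -0.23 for the 55 without. With NRF1 letters the medians were -0.29 (20) and -0.26 (54). With YY1 letters they were -0.43 (8, all below 1) and -0.24 (66, of which 51 were below 1). Atp5e, Atp5j and Sdhd, printed above, are among the ETS group. These are descriptions of overlapping sets with no test.

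Several other pathway lists differed by larger steps over the same radial glia-like cells and excitatory neurons. Of the mitochondrial ribosome, which translates the subunits encoded in mitochondrial DNA, 36 of 75 genes were 1.5-fold lower and 0 higher (beside the 30.4 and 23.5% of all genes), with a median log2 ratio of -0.57. Mrps28 went from 92.6 to 29.1 CPM and Mrps14 from 149 to 47.3 CPM. Of glycolysis, 11 of 18 genes were lower and 4 higher, with a median of -0.98. Aldoc, also a marker used to name radial glia-like cells and so no finding here, went from 920 to 16.2 CPM and Hk2 from 58.5 to 10.5 CPM, while Hk1, the main hexokinase of brain, had 81.6 CPM in neurons, a ratio of 2.72 (2.07 to 3.63), and Eno2, the neuronal enolase, went from 13.2 to 53.0 CPM. Of the regulators of mitochondrial gene expression 7 of 14 were lower, among them Tfb1m, which modifies mitochondrial ribosomal RNA, and the coactivator Pprc1, and 1 was higher, the receptor Esrra, from 23.9 to 45.1 CPM. The citric acid cycle list had 4 of 22 lower and 1 higher, with a median of -0.16, and Suclg2, a succinate-CoA ligase subunit, had 44.2 CPM against 1.38. Of the genes that carry ATP and its substrates, Slc25a5, the ADP/ATP carrier of dividing cells, went from 704 to 185 CPM, while Ckmt1, a mitochondrial creatine kinase, went from 2.54 to 21.3 CPM. Of carriers outside the symbol rule, Atpif1, which inhibits the reverse reaction of ATP synthase, went from 388 to 582 CPM (1.5-fold, 1.39 to 1.63).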

How the data were processed

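The deposited matrix holds raw UMI counts per gene and cell, whole numbers with no normalization, per the file's values. The submitters' processing notes name the build mm10. Which aligner, counting tool and annotation were used, and how reads that match several genes were treated, is not given in the sources. The matrix lists 0 mitochondrially encoded genes. Counts were log-transformed after scaling to 10000 per cell, and 2000 variable genes (without the 91 members, the pathway lists and Rpl or Rps genes), 30 principal components, 15 neighbours and Leiden resolution 1 gave the clusters (igraph 0.11.9, leidenalg 0.10.2, scikit-learn 1.9.0). Clusters were named from 149 measured markers. Doublets were kept. UMIs were summed per class and divided by the class total (shares with Clopper-Pearson intervals, ratios with exact conditional binomial intervals, SciPy 1.17.1); genes needed 50 UMIs over both classes, and a count of 0 was set to 3 counts per class. The ratio step was tested on simulated data. Named are members past 1.5-fold, the highest and lowest of each complex, the most variable across classes, isoforms, and from each pathway list the 2 most changed each way. The Ttr split and Cox6b2 cells were looked at after their values were seen. Members and lists were chosen with earlier results of these data known. Annotation for positions was GENCODE M21 (GRCm38). Some named items are not reported here. Alternatives covered clustering, depth, run, scaling and the size limits.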

Additional observations from a re-analysis of the deposited data

How the results depend on the processing

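The summed log2 ratios were -0.15 for intermediate progenitor-like, -0.26 for excitatory neuron, -0.13 for interneuron-like and 0.13 for choroid plexus-like cells. Interneuron-like cells were set over ganglionic progenitors and the others over radial glia-like cells. All kept their sign under every alternative run, 17, 17, 17 and 16 in number. The ranges were -0.30 to -0.089, -0.35 to -0.20, -0.20 to -0.0021 and 0.034 to 0.16. The sizes and the counts of members past 1.5-fold (2, 15, 4 and 20) depended on how classes were drawn; the cause was not tested. Comparisons are called below by their second class. With Leiden resolution 0.5 the ratio was -0.21 for intermediate progenitors and -0.24 for excitatory neurons, with counts of 5 for intermediate progenitors and 7 for interneurons; with resolution 2 it was -0.23 for excitatory neurons. With 15 principal components it was -0.26, -0.35 and 0.034 for intermediate progenitors, excitatory neurons and choroid plexus, with counts of 8 for intermediate progenitors and 8 for interneurons. With 1000 variable genes it was -0.20, -0.30 and -0.066 for intermediate progenitors, excitatory neurons and interneurons, with 4 members for intermediate progenitors. With the lists allowed in clustering it was -0.32 for excitatory neurons, with 4 members for intermediate progenitors. Without cycle genes it was -0.31 and -0.20 for excitatory neurons and interneurons, with 1 member for intermediate progenitors and 8 for interneurons. With the top 5% of doublet scores removed it was -0.34 and -0.086 for the same classes, with 0 members for intermediate progenitors and 24 for excitatory neurons. With clusters drawn on a random 50% of the UMIs it was -0.29 for excitatory neurons and 0.059 for choroid plexus, with 5, 7 and 31 members for intermediate progenitors, interneurons and choroid plexus. With equal weight per cell it was -0.20 for intermediate progenitors and -0.32 for excitatory neurons. In the first run alone 4 members passed for intermediate progenitors; in the second run alone the ratio was -0.13 with 1 member for intermediate progenitors and -0.0021 with 16 members for interneurons. Scaled without Rpl and Rps genes it was -0.30 for excitatory neurons and -0.15 for interneurons; without the 5 members with the most UMIs it was -0.29 for excitatory neurons; in cells of at least 2000 UMIs it was -0.069 for interneurons. Counts in the order above were 23, 38, 20 and 38 at the limit of 25% higher or 20% lower and 0, 1, 0 and 10 at 2-fold. Alternatives added after seeing the data were depth, naming and Ttr. Under 3000 UMIs the ratios were -0.30, -0.34 and -0.18 for intermediate progenitors, excitatory neurons and interneurons, with 15 and 26 members for the first 2; from 3000 UMIs they were -0.089, -0.20 and -0.056, with 4 members for intermediate progenitors. With every cluster named they were -0.091 and -0.23 for intermediate progenitors and excitatory neurons, with 0 members for intermediate progenitors. With the 10 choroid plexus-like cells rich in Ttr, 32 members passed. The second run and cells under 3000 UMIs could not be run for choroid plexus, where fewer than 10 cells were left. No paired analysis was possible because the cells carry no sample name. The 25 choroid plexus-like and 18 microglia-like cells limit single-gene values most.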

Other observations

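Within the inhibitory branch, 23.4% of all genes were 1.5-fold lower and 19.6% higher. Of the mitochondrial ribosome 18 of 73 genes were lower, near the share of all genes, and 0 higher, with Mrpl13 at 213 CPM in ganglionic progenitors and 96.9 in interneuron-like cells. Of glycolysis 8 of 17 were lower and 2 higher. Ldha, which makes lactate, stood at 383 and 82.2 CPM, and Eno2 at 5.14 and 25.4 CPM. The ADP/ATP carriers diverged: Slc25a5 went from 559 to 205 CPM and Slc25a4, its counterpart in heart, muscle and brain, from 399 to 612 CPM. Ckb, the cytosolic creatine kinase, went from 1192 to 335 CPM, and Esrra from 29.6 to 63.2 CPM. Of 27 assembly factors outside the symbol rule 5 were higher and 3 lower, with a median log2 ratio of 0.079. Ttc19 and Uqcc3 of complex III had the highest ratios, 3.15 (1.92 to 5.40) and 1.92 (1.38 to 2.70), and Atpaf2 and Cox17 were 1.90- and 1.89-fold lower. The citric acid cycle list had 4 of 19 lower and 0 higher.

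In the choroid plexus-like cluster, Mrps6, a protein of the small mitochondrial ribosomal subunit, had 381 CPM against 79.8 in radial glia-like cells, a ratio of 4.78 (3.4 to 6.6), while Mrpl3 of the large subunit had 3 UMIs there, 22.9 against 168 CPM (0.136, 0.028 to 0.402). Cox6b2 fell short of the required 50 UMIs in the excitatory and inhibitory comparisons, so it does not count as measured there. It had 11 UMIs in radial glia-like cells and 4 in excitatory neurons (both classes), 8.13-fold lower (2.41 to 35.0). Ganglionic progenitors had 12 and interneuron-like cells 1, a ratio of 0.077 (0.0018 to 0.518). Among the unnamed clusters, that led by Lhx8 and Nkx2-1 had a subunit share of 2.19% (2.14 to 2.24, 96 cells, median depth 2756 UMIs). All 96 cells lay in the first run, where radial glia-like cells had 2.18%.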
